A study of Homo sapiens with 4 samples.

Results

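The proteasome subunit mRNAs were the 45 genes, of 12838 gene symbols measured, whose symbols run from PSMA to PSMG followed by a number. They comprised 16 genes of the core particle (7 PSMA and 9 PSMB), 6 PSMC ATPase genes, 14 PSMD genes, 4 PSME genes, PSMF1 and 4 PSMG genes. A symbol can have several entries in the deposited table, and the 79 entries of these genes, of 24015 in all, were added up per symbol. The members were found by name, and no measured value entered the choice. PSMA8, PSMB8 and PSMB9 share the name pattern and were not analysed here.

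RNA was precipitated with an antibody to EXOSC10 or with control IgG from LM2-4175 cells, a human breast cancer line selected from MDA-MB-231 for its spread to the lung. EXOSC10 is a nuclease of the nuclear RNA exosome. All cells carried a construct from which doxycycline induces the ceramide synthase CerS4, and all were kept under puromycin and hygromycin. They were left untreated or received doxycycline at 5 µg/mL for 48 h, which gave 4 libraries, 1 for each pairing of antibody and treatment. Cells without the construct were not analysed here, so an effect of CerS4 and one of doxycycline itself cannot be told apart. CERS4 was not analysed here either, and its induction was not checked.

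The proteasome degrades proteins tagged with ubiquitin. Its core particle is a barrel of stacked rings: PSMA subunits form the outer rings that gate entry, and PSMB subunits form the inner rings, in which PSMB5, PSMB6 and PSMB7 carry the proteolytic sites. The regulatory particle caps the barrel with a ring of PSMC ATPases that unfold the substrate, and with PSMD subunits that scaffold the base, receive ubiquitin and make up the lid. PSME genes encode other activators of the core, PSMF1 an inhibitor, and PSMG genes chaperones of core assembly. Cells adjust these mRNAs together through the transcription factor NFE2L1, which accumulates when the proteasome is inhibited.

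The libraries differed in composition. Estimated reads were 3723286 and 7575128 in the untreated and doxycycline IgG libraries, and 4233589 and 5511208 in the untreated and doxycycline EXOSC10 libraries. Ribosomal RNA genes took 56.3% to 83.8% of them, the least in the doxycycline EXOSC10 library, which held 2408176 other reads against 1023361 to 1229744 in the rest. The members held 0.878% and 0.880% of the reads outside ribosomal RNA in the untreated and doxycycline IgG libraries, against 0.640% and 0.526% in the EXOSC10 libraries. All 8 markers of MDA-MB-231 cells had reads, while ESR1 and EPCAM were not analysed here. The 5 luminal markers measured summed to 43.6 to 74.0 scaled CPM per library, LYZ, the blood marker measured, had at most 15 reads, the endothelial marker PECAM1 had 2 to 31, and the fibroblast markers COL1A1 and COL1A2 summed to 23 to 130. The part of other cells in the results was not tested. Fewer bound molecules per cell and fewer cells in a precipitate cannot be told apart.

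Of the 45 members, 39 reached 100 reads in the doxycycline EXOSC10 library, against 18 to 22 in each of the others. Levels are given as CPM after scaling with trimmed mean of M values factors (TMM), and they compare libraries for a gene, not genes with each other, since gene length was not used. PSMB10, PSMB11, PSMD9 and PSMG3 had under 100 reads in the EXOSC10 pair of libraries. No group was replicated, so ratios between single libraries carry 95% intervals for counting error only and no p-value.

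**Figure D1:**
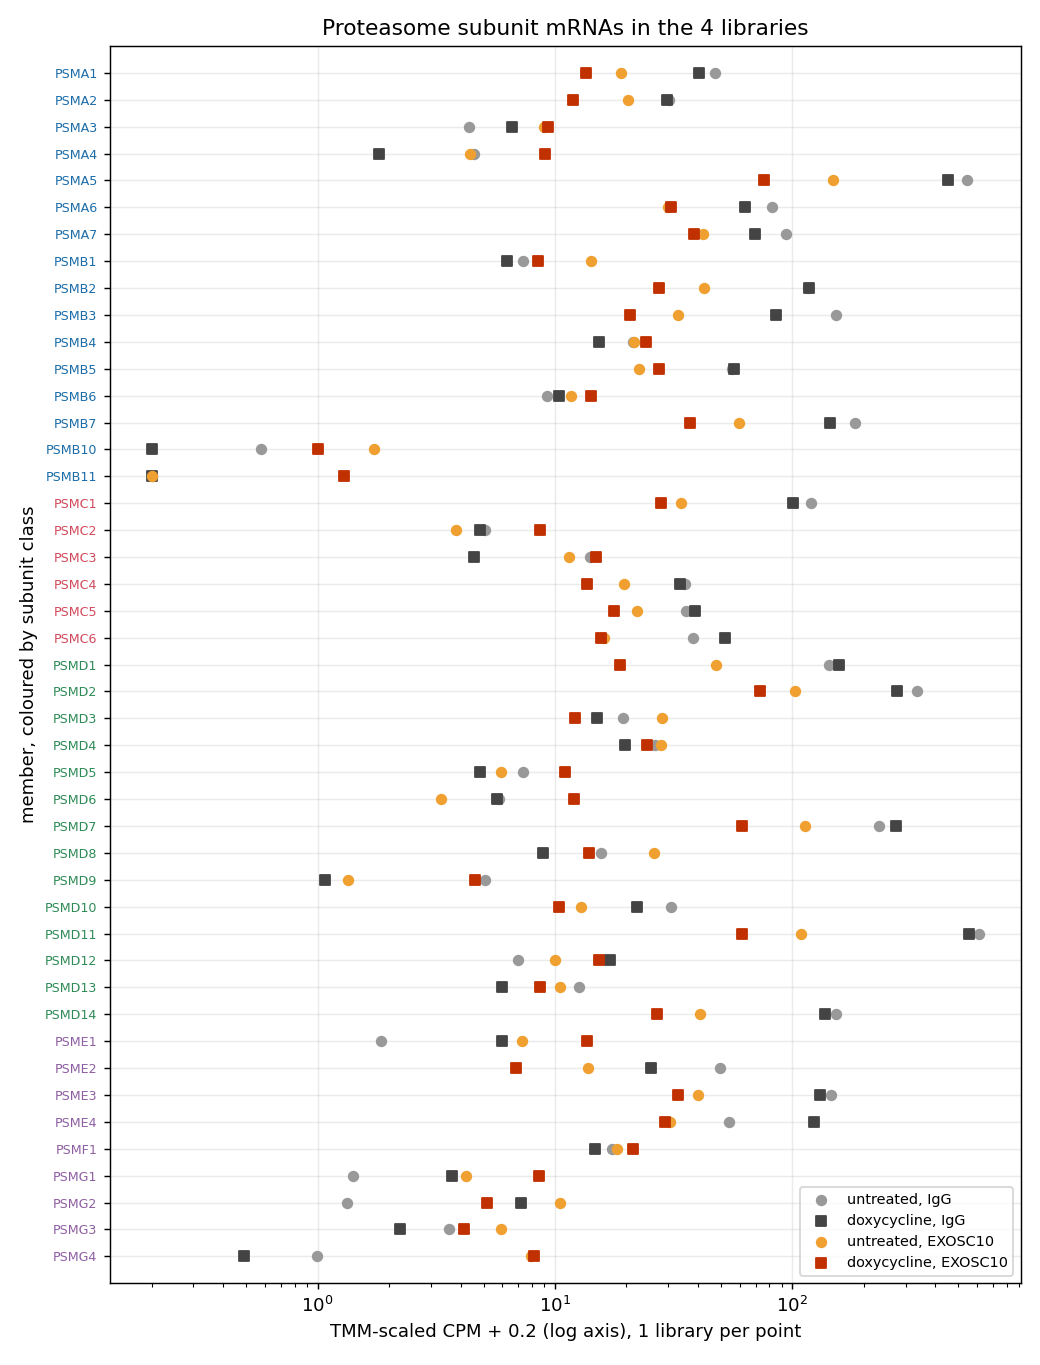
TMM-scaled CPM + 0.2 of each of the 45 members (log axis) in the 4 libraries, 1 point per library and no error bar, since no group was replicated; member names are coloured by subunit class. The EXOSC10 points lie to the left of both IgG points for PSMA5, PSMD11, PSMD2 and PSMD7 and to their right for PSMG4; on total CPM without a scaling factor the antibody effect of PSMD7 is 0.02 on the log2 scale.

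The first comparison asked which proteasome mRNAs were recovered less or more with EXOSC10 than with IgG. With TMM scaling, 20 of 43 members tested were lower with EXOSC10 and 1, PSMG4, was higher (limma on log2 scaled CPM over all 4 libraries with treatment as covariate, adjusted p under 0.05), but on total CPM 0 were lower. Over all 9520 genes tested, 15.8% were lower and 1.42% higher by the same rule. The members' median effect was -0.90 on the log2 scale, against 0.22 for all genes tested. Under TMM scaling, both EXOSC10 libraries lay below both IgG libraries for all 20 lower members and for 2 of the other 23. The calls come from the same 4 libraries, so this separation restates them and is no separate support. The test has 1 residual degree of freedom, and the treatments stand in for replicates. Limma without the mean-variance trend called 0 members and 0 of all genes.

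The effects fell into 2 ranges with none in between. The lower range ended with PSMC5 at -0.90 (adjusted p = 0.0731 by limma), and the upper began with PSMD9 at 0.09. Core, ATPase, PSMD and PSME genes each had members in both ranges, whereas all PSMG genes and PSMF1 lay in the upper one. Called lower were 8 of 14 core genes tested, 3 of 6 ATPase genes and 6 of 14 PSMD genes. PSMC5 and PSMA2 lie in the lower range without a call. The median effects of the 3 classes were -1.09, -0.99 and 0.11, but their order differed between the untreated and the treated pair, which hold different genes. Among members with 100 reads, the EXOSC10 over IgG medians in untreated cells were -1.38 (10 genes), -1.04 (4) and -1.26 (9). With doxycycline they were -1.05 (14 genes), -1.21 (6) and -0.30 (13). The PSMD genes added there, PSMD5, PSMD6, PSMD12 and PSMD13, reached 100 reads only through the treated EXOSC10 library. These medians therefore do not compare the treatments over the same genes. PSMC4 at -1.07 (adjusted p = 0.0439) passed the threshold by the least, and PSMC5, PSME1 at 1.58 (adjusted p = 0.0877) and PSMA2 at -0.94 (adjusted p = 0.0892) missed it by the least.

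Among the alpha ring genes, PSMA1, PSMA5, PSMA6 and PSMA7 were lower with EXOSC10. PSMA5, at chr1:109399042-109426448 (GRCh38.p14), had 546 and 452 scaled CPM in the untreated and doxycycline IgG libraries and 148 and 75.5 in the EXOSC10 libraries. Its antibody effect was -2.23 (SE 0.28, adjusted p = 0.00184 by limma), and the IgG and EXOSC10 values were apart by more than the treatments were. PSMA1 had 46.9 and 40.0 scaled CPM with IgG and 18.7 and 13.3 with EXOSC10. PSMA7 had 93.5 and 69.3 with IgG and 41.7 and 38.4 with EXOSC10, the smallest effect of the 4 at -1.01. PSMA4 did not pass: its 11.7 and 5.6 reads with IgG and 22 and 121.1 with EXOSC10 gave an effect of 1.13 (SE 0.74).

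The beta ring gave the same mixture. PSMB3 had 152 and 85.4 scaled CPM in the untreated and doxycycline IgG libraries and 32.9 and 20.4 in the EXOSC10 libraries, an effect of -2.13 (SE 0.25, adjusted p = 0.00176 by limma). The catalytic subunits differed from each other. PSMB7, which carries the trypsin-like site, had 184 and 144 scaled CPM with IgG and 59.3 and 36.8 with EXOSC10. PSMB5, the chymotrypsin-like subunit and the target of bortezomib, had 55.2 and 56.6 with IgG and 22.4 and 27.3 with EXOSC10. PSMB6, with the caspase-like site, had 9.01 and 10.2 with IgG and 11.5 and 14.01 with EXOSC10. PSMB7 and PSMB5 were lower with EXOSC10 (-1.80 and -1.17), while the effect of PSMB6 was 0.40 (SE 0.39, adjusted p = 0.497). PSMB2 was also lower, at -1.77, whereas PSMB1 and PSMB4 were at 0.69 and 0.34 and did not pass.

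The inner-ring variants of specialised proteasomes were close to the detection limit. PSMB10, of the interferon-induced immunoproteasome, had 1 and 0 reads in the untreated and doxycycline IgG libraries and 8 and 11 in the EXOSC10 libraries. PSMB11, of the thymic proteasome, had 15 reads in the doxycycline EXOSC10 library and 0 in the other 3. Since entries in the table have at least 10.0 reads in 1 library, PSMB11 is listed only through that library, and no fold is given for it.

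In the ATPase ring, PSMC1, PSMC4 and PSMC6 were lower with EXOSC10. PSMC1 had 120 and 101 scaled CPM with IgG and 33.6 and 27.8 with EXOSC10 (-1.84, SE 0.25, adjusted p = 0.00207 by limma). PSMC6 had 37.9 and 51.6 with IgG and 15.9 and 15.5 with EXOSC10. PSMC3 overlapped between antibodies, with 13.9 and 4.35 scaled CPM with IgG and 11.3 and 14.7 with EXOSC10. PSMC2 had 4.88 and 4.64 with IgG and 3.63 and 8.46 with EXOSC10, so that the untreated EXOSC10 library was the lowest and the treated one the highest.

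PSMD genes held both the strongest negative effects and a group near 0. PSMD11, a lid subunit at chr17:32444510-32483319, had 611 and 557 scaled CPM in the untreated and doxycycline IgG libraries and 108 and 61.0 in the EXOSC10 libraries. Its effect of -2.84 (SE 0.28, adjusted p = 0.00176 by limma) was the lowest among the members. PSMD14, the lid deubiquitinase that strips ubiquitin from substrates, had 152 and 137 with IgG and 40.6 and 26.7 with EXOSC10 (-2.13). PSMD7, which pairs with PSMD14, had 231 and 273 with IgG and 112 and 61.3 with EXOSC10 (-1.59, adjusted p = 0.008).

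The lid was not uniform, since PSMD11, PSMD14 and PSMD7 were its only lower members of 8 in this test. The other 5, PSMD3, PSMD6, PSMD8, PSMD12 and PSMD13, had effects from 0.12 for PSMD3 to 0.69 for PSMD8. PSMD8 had 15.4 and 8.70 scaled CPM with IgG and 26.0 and 13.6 with EXOSC10, which overlap.

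Of the base scaffold, PSMD1 and PSMD2 were lower with EXOSC10 and PSMD4 was not. PSMD2 had 336 and 276 scaled CPM with IgG and 102 and 72.8 with EXOSC10 (-1.82, adjusted p = 0.00207 by limma). PSMD1 had 142 and 157 with IgG and 47.2 and 18.7 with EXOSC10 (-2.32, adjusted p = 0.00285). The ubiquitin receptor PSMD4 had 26.3 and 19.4 with IgG and 27.7 and 24.1 with EXOSC10, close together. Among the assembly chaperones of the base, PSMD10 (gankyrin) was lower (-1.18, adjusted p = 0.0395), and PSMD5 and PSMD9 were at 0.44 and 0.09.

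The activators and core chaperones went different ways. PSME3, an activator found in the nucleus, had 145 and 130 scaled CPM with IgG and 39.8 and 32.7 with EXOSC10 (-1.92, adjusted p = 0.00184 by limma). PSME2, which forms an interferon-induced activator with PSME1, had 49.6 and 25.2 with IgG and 13.6 and 6.64 with EXOSC10 (-1.87). Its partner PSME1 had 1.65 and 5.80 with IgG and 7.08 and 13.4 with EXOSC10, so that both EXOSC10 values were the higher ones. PSME4, a large nuclear activator, was lower with EXOSC10 at -1.46 (adjusted p = 0.0177).

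The 4 PSMG chaperones had few reads with IgG and effects above 0 under TMM scaling, from 0.81 for PSMG3 to 3.53 for PSMG4. PSMG4 had 2.1 and 1 reads in the untreated and doxycycline IgG libraries and 40.6 and 109 in the EXOSC10 libraries (SE 0.83, adjusted p = 0.0194 by limma). It entered the test, which asks for 10.0 reads in 2 libraries, only through the EXOSC10 libraries in which it is high, so its call is no independent support for a higher recovery. The other 3 did not pass. PSMG3, with 9 and 7 reads with IgG and 30 and 54 with EXOSC10, entered the test in the same way. The effect of PSMG3 above 0 is therefore no independent support either. PSMF1, the inhibitor, had 17.3 and 14.5 scaled CPM with IgG and 17.97 and 21.2 with EXOSC10 (0.30, adjusted p = 0.559).

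The direction of these effects depended on the scaling. On total CPM, 1 of the 21 calls was kept, that of PSMG4, and the calls over all genes turned from 1505 lower and 135 higher to 6 lower and 491 higher. Scaled to reads outside ribosomal RNA, 10 of the 21 were kept (PSMA5, PSMB3, PSMB7, PSMC1, PSMD1, PSMD2, PSMD11, PSMD14, PSME3 and PSMG4), with 579 genes lower and 3465 higher. What does not move with a scaling factor is the place of the members among all genes. In untreated cells, 27 members with 100 reads had a median EXOSC10 over IgG ratio of -1.29 against -0.45 for all genes. With doxycycline, 40 members had a median of -1.05 against 0.06. The members' median was therefore lower than that of all genes by 0.85 and by 1.11 on the log2 scale. This distance moved with the read minimum: with 500 reads it was -0.27 in untreated cells, over 10 members.

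By a rule for single libraries (a ratio of at least 2-fold, on 100 or more reads in the pair), 18 of 27 members were lower and 0 higher with EXOSC10 in untreated cells under TMM scaling, against 7 lower and 2 higher on total CPM. Over all genes, 36.1% were lower and 5.5% higher. With doxycycline, 21 of 40 members were lower and 7 higher under TMM scaling, against 0 lower and 25 higher on total CPM. Over all genes, 26.4% were lower and 14.5% higher. The 7 were PSMA4, PSMC3, PSMD5, PSMD6, PSME1, PSMG1 and PSMG4, each with under 250 reads in that pair, and each reached 100 reads only through the EXOSC10 library in which it was high. Among 27 members with 100 reads in both pairs, the untreated and treated ratios correlated across genes with Pearson's r = 0.861 and Spearman's rho = 0.75, against 0.790 and 0.814 over 3582 genes. Genes are not independent replicates, and all points of a pair share the same libraries and scaling.

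**Figure D2:**
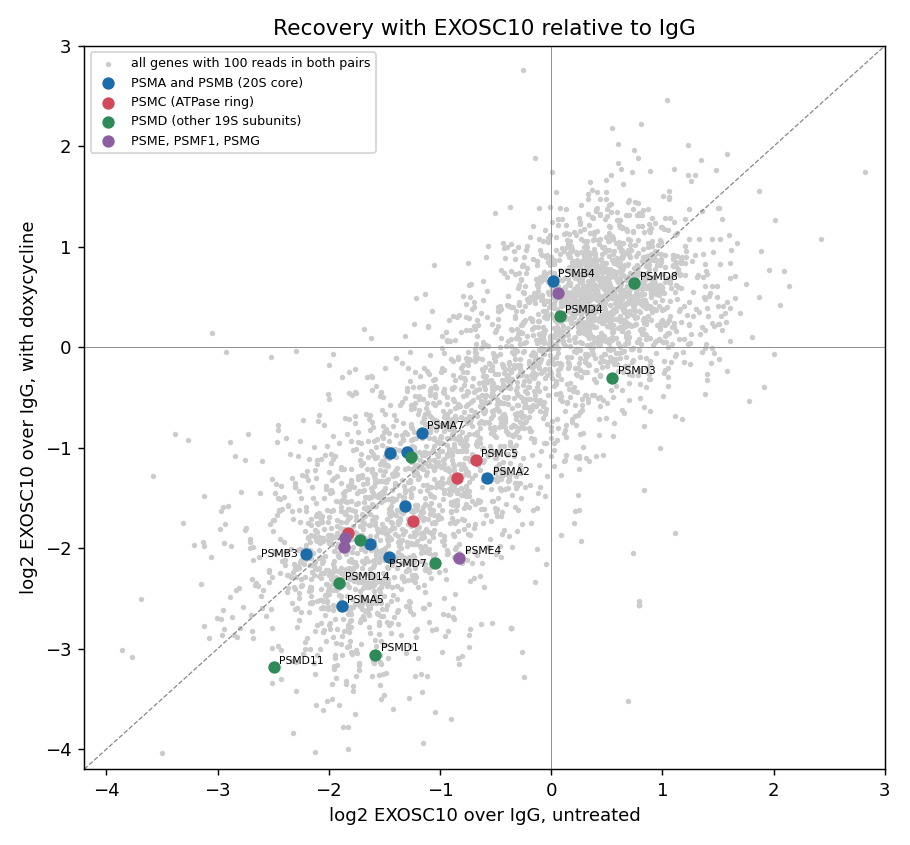
Log2 ratio of EXOSC10 over IgG in untreated cells (x axis) and with doxycycline (y axis), both TMM-scaled, for the members and all 3582 genes with 100 reads in both pairs of libraries (8 genes lie outside the axes); each point is 1 gene and the dashed line marks equal ratios. PSMD11 lies at -2.49 and -3.19 and PSMD8 at 0.75 and 0.64; on total CPM without a scaling factor all but 3 of the treated ratios that were 2-fold lower turn positive.

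The effect moved with the number of reads, for members and for genes in general. The 20 lower members had 363.4 to 4948 reads summed over the 4 libraries, with a median of 1227, and the 23 others 82.2 to 613, with a median of 227. Across genes, the antibody effect and log2 reads had a Spearman's rho of -0.837 over 43 members and -0.386 over 9520 genes, both computed from the same reads as the effect. Set against genes with as many reads in the pair, the members' place differed by band. In the treated pair, the 16 members with 100 to 250 reads had a median ratio of 0.74 against 0.30 for 3204 genes, and 3 of them lay below the median of those genes. Below it lay 6 of 9 members with 250 to 500 reads (-1.12 against -0.08), all 10 with 500 to 1000 (-2.02 against -0.58) and all 5 with 1000 or more (-2.15 against -1.54). In the untreated pair, 7 of 12, 5 of 5, 6 of 6 and 3 of 4 members lay below in the same bands. The untreated medians were -0.63 against -0.10, -1.29 against -0.75, -1.75 against -1.36 and -1.80 against -1.64. PSMD10 was lower with 363.4 reads and PSMD4 was not with 613. The part of read number in the effect was not tested.

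**Figure D3:**
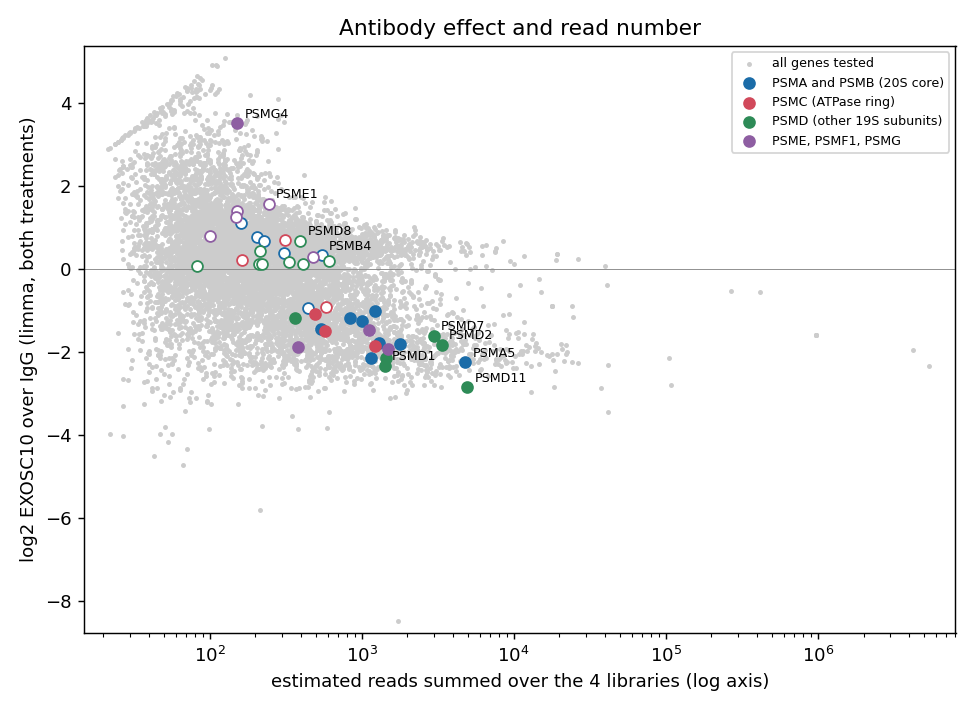
Limma effect of EXOSC10 over IgG on the log2 scale (y axis, TMM-scaled, both treatments) against estimated reads summed over the 4 libraries (x axis, log scale) for 43 members and all 9520 genes tested; filled symbols passed an adjusted p of 0.05 and open ones did not. Filled members lie to the right and below, from PSMD10 at 363.4 reads to PSMD11 at 4948, with PSMG4 alone above; on total CPM without a factor PSMG4 alone would be filled.

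The second comparison, the study's treatment contrast, asked whether doxycycline changed the recovery of these mRNAs. Limma, with antibody as covariate, called 0 of 43 members and 0 of all 9520 genes (0% called), with 5 members and 446 genes at an unadjusted p under 0.05. Limma without the trend also called 0. The 5 were PSME2 (-0.99), PSMB3 (-0.76), PSMD8 (-0.87), PSMD12 (0.96) and PSME1 (1.30), each with an adjusted p of 0.845. The members' median was -0.30 and that of all genes -0.04.

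In the EXOSC10 libraries alone, 41 members had 100 reads and a median doxycycline ratio of -0.28, against -0.03 for all genes. The core median was -0.31 over 14 genes, the ATPase median -0.15 over 6 and the PSMD median -0.48 over 13. Of the 41, 4 were at least 2-fold higher and 4 at least 2-fold lower, against 6.25% and 3.91% of all genes. On total CPM these counts were 15 and 0, and with a minimum of 500 reads 0 and 1.

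PSMD1 was the lowest, with 47.2 scaled CPM in the untreated and 18.7 in the doxycycline EXOSC10 library (247 and 255.9 reads), a ratio of -1.33 with an interval of -1.60 to -1.08. With IgG it had 142 and 157 scaled CPM, a ratio of 0.15. PSMD3, a lid subunit, had 28.1 and 12.0 scaled CPM with EXOSC10 (-1.22) and 19.2 and 14.8 with IgG (-0.37). Under TMM scaling, PSME2 was lower by about the same in both antibodies, from 13.6 to 6.64 scaled CPM with EXOSC10 (-1.01) and from 49.6 to 25.2 with IgG (-0.97). This likeness depends on the scaling. On total CPM the median ratio of all genes moved from -0.03 to 0.97 with EXOSC10 and from -0.06 to -0.70 with IgG. PSMG2 had 54 and 68 reads with EXOSC10, a ratio of -1.03, and 3 and 24 reads with IgG.

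The 4 higher members had few reads in the untreated EXOSC10 library. PSMD6, a lid subunit, had 16.2 reads there and 162 with doxycycline, or 3.10 and 11.8 scaled CPM, a ratio of 1.86 with an interval of 1.19 to 2.76. PSMC2 had 19 and 116 reads (1.18), PSMA4 22 and 121.1 (1.04), and PSMG1 21 and 114.6 (1.02). The intervals of these 3 ran from 0.51 to 2.002, from 0.41 to 1.80 and from 0.38 to 1.80, so each reached well under 2-fold. All 4 reached 100 reads only through the doxycycline library in which they were high, so their number is a description of these libraries.

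In the IgG libraries, 25 members had 100 reads, with a median doxycycline ratio of -0.23 against -0.06 for all genes. PSME4 alone was 2-fold higher, with 53.7 and 123 scaled CPM (143 and 425 reads), a ratio of 1.20 with an interval of 0.92 to 1.48, and 0 were 2-fold lower. Over all genes 2.91% were higher and 3.51% lower. PSME4 had 30.2 and 28.7 scaled CPM with EXOSC10, so the treated IgG library stood apart from the other 3 under TMM scaling, but not on total CPM. On total CPM, 0 members were higher and 9 lower.

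**Figure D4:**
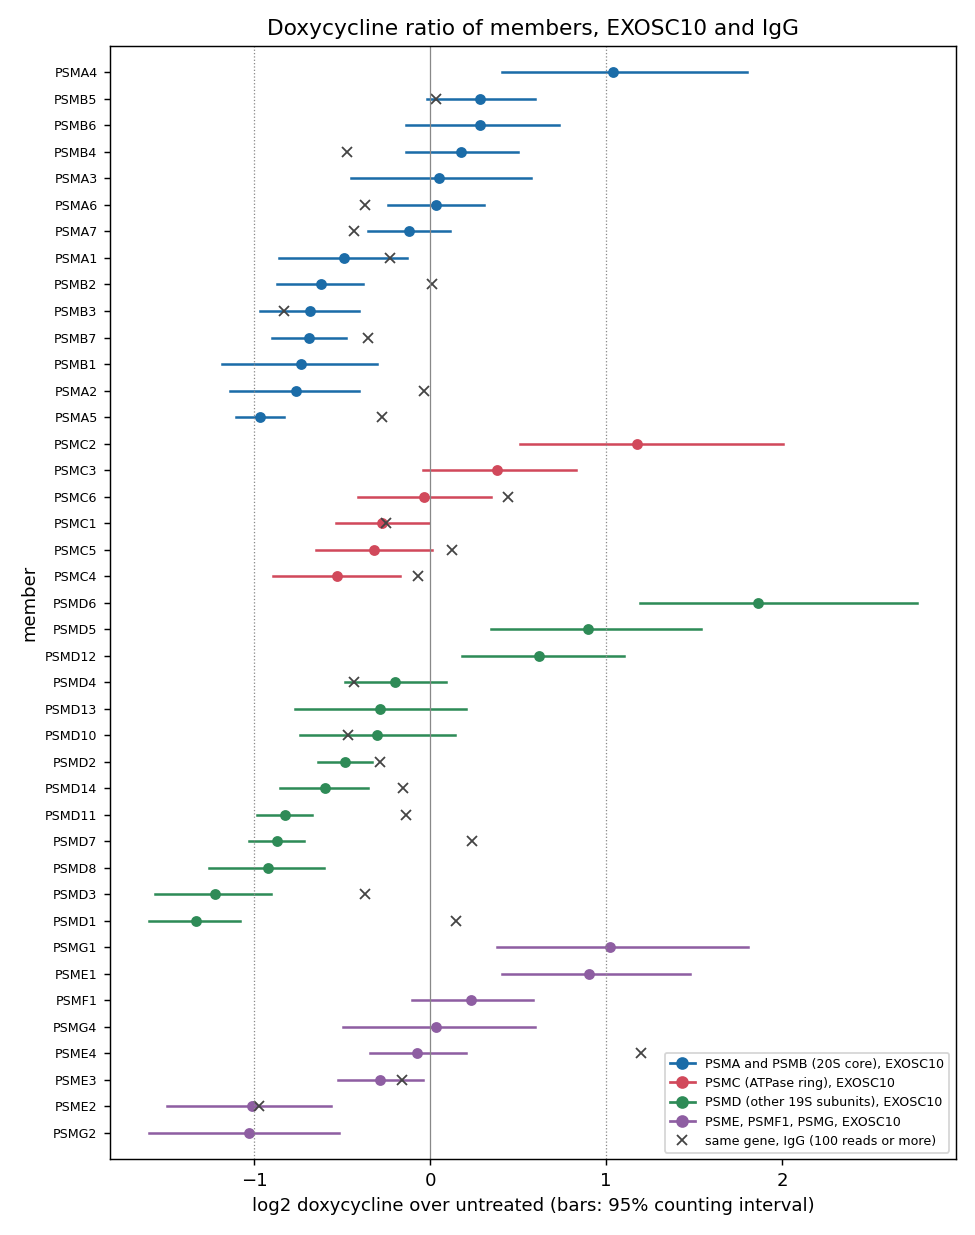
Log2 ratio of doxycycline over untreated in the EXOSC10 libraries (circles, bars are 95% counting intervals, 41 members with 100 reads) and in the IgG libraries (crosses, 25 members), TMM-scaled; dotted lines mark 2-fold. PSMD6 is highest at 1.86 and PSMD1 lowest at -1.33, and PSME4 has a cross at 1.20 with its circle at -0.07; on total CPM without a factor, 15 circles would pass 2-fold upward and 0 downward.

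The change of the EXOSC10 over IgG ratio with doxycycline could be had for 25 members with 100 reads in each antibody's pair. It had a median of -0.33, against -0.13 for all genes. PSMD1 (-1.48), PSME4 (-1.27) and PSMD7 (-1.11) were at least 2-fold lower and 0 members at least 2-fold higher, against 10.6% and 4.83% of all genes. On total CPM the 3 values were 0.18, 0.39 and 0.55, all above 0. Core genes had a median change of -0.06 over 10 genes, ATPase genes -0.45 over 4 and PSMD genes -0.57 over 8. The order of core and ATPase genes depended on the read minimum: relative to all genes they were at 0.07 and -0.32, but at -0.35 and 0.25 with 500 reads. The change shares its 4 libraries with the ratios above and is not separate evidence. Without replicates, the interaction could not be tested.

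The classes' shares of the members' reads differed between libraries. Core genes held 38.9% and 34.9% in the untreated and doxycycline IgG libraries and 38.0% and 37.6% in the EXOSC10 libraries. ATPase genes held 7.10% and 7.43% with IgG and 8.44% and 10.55% with EXOSC10. PSMD genes held 46.1% and 47.7% with IgG and 42.7% and 38.0% with EXOSC10 (exact binomial intervals 41.5% to 43.9% and 37.2% to 38.9%). PSME, PSMF1 and PSMG genes together held 7.88% and 9.93% with IgG and 10.9% and 13.8% with EXOSC10. Of the 4 libraries, the treated EXOSC10 library thus had the lowest PSMD share and the highest shares of ATPase and of PSME, PSMF1 and PSMG genes. PSMD11 alone had 1627 and 1919 reads with IgG and 566 and 836 with EXOSC10.

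Entries of the same symbol did not always move together. The table gives no identifier for an entry, so which transcript or locus each stands for was not established. PSMA5 had 3 entries: entry 1 had ratios of EXOSC10 over IgG of -2.72 in untreated cells and -3.90 with doxycycline, entry 2 of -2.72 and -3.91, and entry 3 of -0.15 and -0.998. Entry 3 held 16.0% and 23.4% of the gene's reads in the IgG libraries and 53.1% and 69.9% in the EXOSC10 libraries.

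PSME3 had 5 entries. Its entry 5 had 238.3 and 333.3 reads in the untreated and doxycycline IgG libraries, 149.1 in the untreated EXOSC10 library and 10.3 in the doxycycline EXOSC10 library. Entry 3 had 111.2 and 56.7 reads with IgG, 25.3 in the untreated EXOSC10 library and 338.4 in the treated one. The treated EXOSC10 library thus differed from the rest in which entry led, while the gene's sum gave a doxycycline ratio of -0.28. PSMD6 also changed entry: entry 1 held 16.2 of its reads in the untreated EXOSC10 library, and entry 2 held 130.3 of 162 in the treated one. Entries of PSMG1 and PSMG2 also shifted between the untreated and treated EXOSC10 libraries. Entry 3 of PSMG1 went from 21.0 to 3.1 reads and its entry 2 from 0.0 to 99.7. Entry 1 of PSMG2 went from 53.9 to 36.7 reads and its entry 2 from 0.1 to 31.3. The 2-fold ratios of PSMD6, PSMG1 and PSMG2 are those of the sums.

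**Figure D5:**
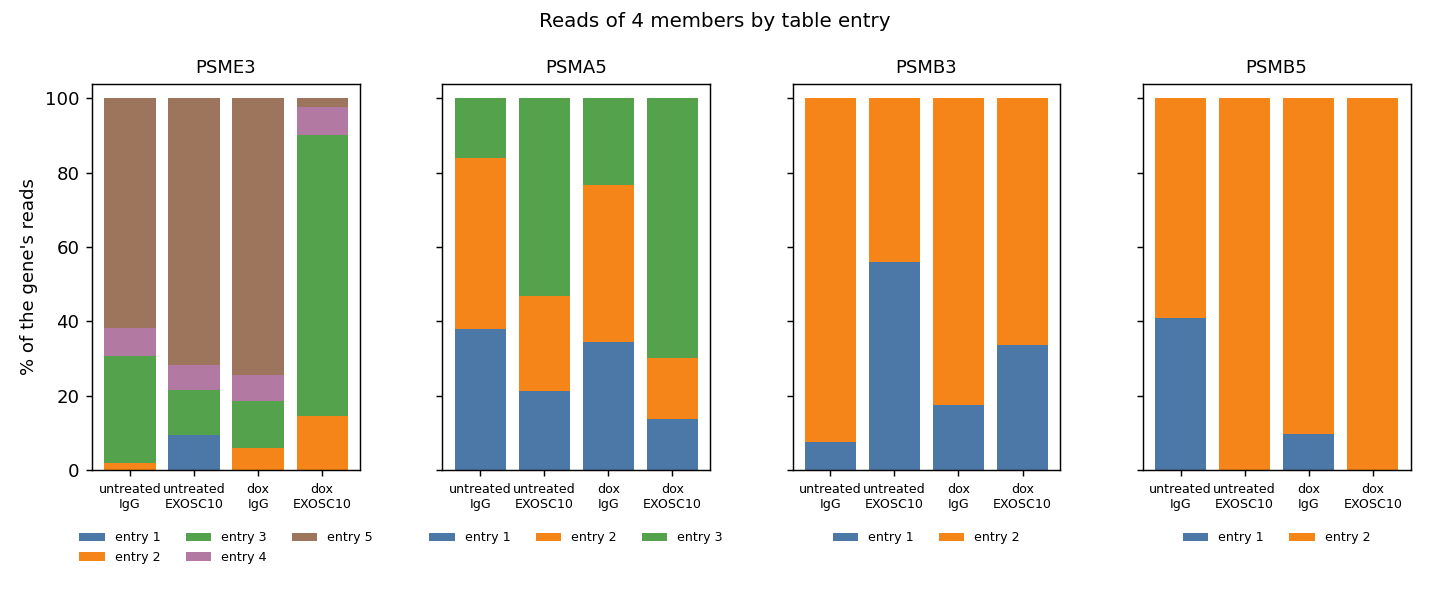
Share of a gene's estimated reads (y axis, percent) on each of its table entries (colours) in the 4 libraries, for PSME3, PSMA5, PSMB3 and PSMB5; 1 library per bar and no error bar. PSME3 is led by entry 3 with 75.5% in the doxycycline EXOSC10 library and by entry 5 with 61.7% to 74.4% in the other 3.

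Other limits of counting touch single members. Reads of 14 members came in fractions, and with whole-read members alone 13 of 29 tested were lower with EXOSC10. The gene models of PSMA3, PSMB7, PSMC1, PSMC2, PSMC5, PSMD1, PSMD10 and PSMG2 overlap another gene with an entry, and the sources used here do not give the strand setting. The annotation lists 52 pseudogenes of 21 members, 0 of them with an entry, so reads of near-identical copies could not be separated.

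Genes that work with the proteasome were listed too, with earlier results of these data known. Of 17 associated proteins, chaperones and regulators, 8 were lower with EXOSC10 and 0 higher in the limma antibody test, with a median of -0.69. Over all genes 15.8% were lower and 1.42% higher, and lower calls over all genes fell from 1505 to 6 on total CPM and to 0 without the trend. NFE2L1 had 1057 and 1348 reads in the untreated and doxycycline IgG libraries and 745 and 1031 in the EXOSC10 libraries (-1.93, adjusted p = 0.00289). SEM1, a small lid subunit outside the PSM names, had 5 and 18 reads with IgG and 67 and 115 with EXOSC10 (1.66, adjusted p = 0.111). Of 14 ubiquitin genes, activating enzymes and shuttles, 7 were lower and 0 higher, with a median of -0.67. Among these, UBA1, the main ubiquitin-activating enzyme, was at -1.81 (adjusted p = 0.00289) and VCP, the segregase that extracts ubiquitinated proteins, at -1.75. UBB, which encodes ubiquitin, was lower at -1.56 (adjusted p = 0.0114 by limma).

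The promoters of the members were searched for the antioxidant response element core bound by NFE2L1 and related factors, spelled TGACNNNGC, on either strand, in RefSeq windows of 300 bases (250 before to 50 after the start, GRCh38.p14). Promoters were matched for 39 of the 45 members. The core was present in 12 (30.8%), against 13.6% of 27305 promoters in the same table. It was present in 1 of 12 core, 1 of 6 ATPase, 5 of 13 PSMD and 5 of 8 PSME, PSMF1 and PSMG promoters. Searched the same way and counted separately, CCAAT was in 46.2% and GGGCGG in 64.1% of members' promoters, against 35.7% and 44.6% of all. The 12 with the core had a median doxycycline ratio of -0.53 with EXOSC10 over 11 genes with 100 reads, and the 27 without it -0.28 over 25. With IgG these medians were -0.22 over 6 genes and -0.16 over 16. The EXOSC10 over IgG medians, with and without the core, were -1.21 and -1.31 in untreated cells and -0.80 and -1.09 with doxycycline. A link between the motif and any ratio was not tested. A match is a stretch of letters and not a site of binding.

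The match is shown for the 5 members with it that were 2-fold apart between the EXOSC10 libraries, with the element in capitals. PSMD1 lies on the plus strand, at chr2:231056896-231056916, centred at 43 bases after the start. PSMD3 is at chr17:39980760-39980788 on the plus strand, PSME2 at chr14:24146767-24146795 on the minus strand, PSMG1 at chr21:39183616-39183644 on the minus strand and PSMG2 at chr18:12658689-12658717 on the plus strand. The element shown for PSMD3 is centred at -33 bases from the start, that of PSME2 at -171, that of PSMG1 at -179 and that of PSMG2 at -35. PSMD3 has another match on the minus strand, at chr17:39980830-39980856 and centred at 37 bases after the start, which is not shown.
PSMD1: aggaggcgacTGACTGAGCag
PSMD3: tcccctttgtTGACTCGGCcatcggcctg
PSME2: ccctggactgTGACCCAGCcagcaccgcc
PSMG1: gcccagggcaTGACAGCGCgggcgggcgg
PSMG2: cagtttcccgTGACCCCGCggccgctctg
The 5 were matched on the fixed letters of the element, so sharing these follows from the search. They differ in the bases between them. PSMD1, PSMD3, PSME2 and PSMG2 were lower and PSMG1 was higher with doxycycline in the EXOSC10 libraries under TMM scaling, whereas on total CPM 0 members were 2-fold lower. The ratios of PSMG1 and PSMG2 are those of sums over entries that did not move together.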

How the data were processed

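Per the labels' protocols, 500 ng of total RNA per library went into a SMARTer mRNA-seq preparation. STAR, Partek and genome build hg38 are named, without versions, per the submitters' processing notes. The authors deposited CPM per entry with a constant of 0.0001, which was removed. Reads were estimated by dividing by the CPM of 1 read (0.132 to 0.269 per library). Since 67.6% to 74.0% of genes per library lay within 0.05 of a whole read and the rest did not, no count model was used, although one had been foreseen for raw counts.

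Values were scaled with TMM factors (30% and 5% trims) in Python 3.11.15. Ratios are log2 with a pseudocount of 0.2 CPM, which understates the change of low genes. Intervals are exact (Clopper-Pearson, 95%). For the change of enrichment they come from summed reciprocal reads. They cover counting error only, since the table holds reads, not molecules counted by identifiers. Limma 3.58.1 (R 4.3.3) fitted antibody and treatment additively, with trend, on genes that reached 10.0 reads in 2 or more libraries, and p-values were adjusted by Benjamini-Hochberg. Every entry in the table reached 10.0 reads in at least 1 library, so weaker entries were not analysed here. The fit and the scaling were also run on simulated data with counting error only, equal scaling factors and as many genes raised as lowered. The real libraries differ from these settings, so that run is no support for the calls or the scaling.

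The members were set by their names, and the lists were chosen with earlier results of these data known. Values in all libraries were given for catalytic, immunoproteasome and thymic subunits, ubiquitin receptors, PSMD14, PSMF1, members farthest from all genes in either direction (10 each way) and the extremes of each class. Alternatives covered scaling, pseudocount, read minimum, depth, whole reads, the trend and the entry used.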

Additional observations from a re-analysis of the deposited data

Results flagged for a closer look

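PSMD7, the lid subunit that pairs with the deubiquitinase PSMD14, had doxycycline ratios of opposite sign in the 2 antibodies, with both counting intervals away from 0. With EXOSC10 the ratio was -0.87 (interval -1.03 to -0.72; 112 scaled CPM untreated and 61.3 with doxycycline). With IgG it was 0.24 (interval 0.09 to 0.39; 231 and 273 scaled CPM). These signs are those under TMM scaling: on total CPM the ratios were 0.14 with EXOSC10 and -0.41 with IgG, the opposite way round, and the change of enrichment of PSMD7 went from -1.11 to 0.55. Each is a ratio of 1 library to 1, and the difference between them was not tested.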

How the results depend on the processing

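No paired analysis was possible because the labels carry no replicate numbers and each group has 1 library; treatment as covariate in the antibody test sets antibodies against each other within a treatment, but pairs no replicates. A scaling factor shifts all genes of a ratio alike, apart from the pseudocount. The members' median relative to all genes therefore kept its direction by construction in all 5 ratios under every scaling run. This is no sign of robustness. Of 377 recomputed summary values, 323 stayed close to the main value and 54 did not, and of 2726 values of single members, 2380 stayed close, 243 moved, 54 lost and 18 gained a call, and 31 called ones turned their direction. The causes were not tested beyond what each setting changes by construction.

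Counts of members at least 2-fold higher or lower moved most. For the doxycycline ratio with EXOSC10 the 4 higher became 15 on total CPM, 2 with median-of-ratios factors or a pseudocount of 1 CPM, 0 with a minimum of 500 reads and 1 among whole-read members. The 4 lower became 0 on total CPM, 7 with median-of-ratios factors, 1 with 500 reads, and 2 with the total outside ribosomal RNA, the upper quartile or a pseudocount of 1. With IgG, the 1 higher became 0 on total CPM and 4 with 20 reads. The 0 lower became 9 on total CPM, 1 with median-of-ratios factors and 2 with 20 reads. For EXOSC10 over IgG in untreated cells, the 0 higher became 2 on total CPM and 5 with the total outside ribosomal RNA or 20 reads. The 18 lower became 7, 2 and, with 500 reads, 10. With doxycycline, the 7 higher became 25 on total CPM, 16 with the total outside ribosomal RNA, 0 with 500 reads, 4 after thinning, 2 among whole-read members and 3 with the highest entry only. The 21 lower became 0 on total CPM and 8 with the total outside ribosomal RNA. For the change of enrichment, the 0 higher became 18 on total CPM and 4 with 20 reads, and the 3 lower became 0 on total CPM and 6 with the highest entry only.

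Medians relative to all genes moved with the read minimum. With 500 reads they were -0.27 for the members, -0.24 for core and -0.20 for PSMD genes in untreated cells (main values -0.85, -0.93 and -0.81), -0.86 for ATPase and -1.36 for PSMD genes with doxycycline (main values -1.27 and -0.36), and -0.35 for core and 0.25 for ATPase genes in the change of enrichment (main values 0.07 and -0.32). With 20 reads the core median in untreated cells was -1.29. Among whole-read members the ATPase median with doxycycline was -0.20.

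In the limma antibody test, the 1 higher member became 13 with the total outside ribosomal RNA, 2 with the upper quartile, and 0 with 500 reads, whole-read members, the highest entry or no trend. The 20 lower became 0 on total CPM or without the trend, 9 with the total outside ribosomal RNA, 13 among whole-read members and 12 with the highest entry. Its calls held for 21 of 21 members with median-of-ratios factors, a pseudocount of 1 CPM, 20 reads or thinning. Over all genes the calls were 135 higher and 1505 lower, against 445 and 1470 with the upper quartile, 63 and 1436 with a pseudocount of 0.05, 326 and 1668 with a pseudocount of 1, 397 and 1785 with 20 reads, 39 and 649 with the highest entry, and 0 and 0 without the trend.

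On total CPM the effects of 9 called members turned positive: PSMA1 0.16, PSMA6 0.36, PSMA7 0.61, PSMB5 0.44, PSMC4 0.53, PSMC6 0.12, PSMD7 0.022, PSMD10 0.42 and PSME4 0.15. PSMA7 was also at 0.0089 with the total outside ribosomal RNA. The ratio of EXOSC10 over IgG with doxycycline turned positive on total CPM for 18 members: PSMA1 0.85, PSMA2 1.12, PSMA6 1.39, PSMB2 0.35, PSMB3 0.38, PSMB5 1.39, PSMB7 0.48, PSMC1 0.59, PSMC4 1.13, PSMC5 1.31, PSMC6 0.71, PSMD2 0.53, PSMD7 0.30, PSMD10 1.32, PSMD14 0.092, PSME2 0.52, PSME3 0.46 and PSME4 0.35. The change of enrichment turned positive for PSMD1 (0.18), PSMD7 (0.55) and PSME4 (0.39).

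Depth limited the low members most: PSMB10, PSMB11, PSMD9 and PSMG3 entered no ratio between the EXOSC10 libraries, and with 1 library per group no replicate error was measured.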

Other observations

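Other protein complexes also held genes lower with EXOSC10 in the limma antibody test under TMM scaling, whose calls for the members were nearly all lost on total CPM. Of the 9 COP9 signalosome genes, a complex related in structure to the proteasome lid, 4 were lower and 0 higher, with a median of -0.96. Of the 13 genes of eIF3, a translation initiation factor that shares lid-type domains, 5 were lower and 0 higher, with a median of -0.01. Of the 8 genes of the CCT chaperonin, which folds actin and tubulin, 3 were lower (TCP1 at -2.18, CCT4 at -1.33 and CCT7 at -1.13) and 0 higher, with a median of 0.23. Of 76 cytosolic ribosomal protein genes tested, 16 were lower and 2, RPS20 and RPS21, higher, with a median of 0.43. Over all genes tested the median was 0.22, and 15.8% were lower and 1.42% higher. The lists were not tested against each other.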
